A study of Mus musculus with 9 samples.

Results

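The genes described here are 37 enzymes, carriers and regulators of the tricarboxylic acid (TCA) cycle, of pyruvate and glutamate entry into mitochondria and of mitochondrial fatty acid oxidation. They were taken by name from a table of 16344 genes, with earlier results of these data known, and all 37 had a row in it. By role they comprised 12 TCA cycle enzymes, 4 NADP-linked or cytosolic partners of the cycle, 6 genes of pyruvate entry, 3 regulators of pyruvate dehydrogenase, 2 genes of glutamate entry, 7 genes of fatty acid oxidation and 3 genes of the electron transfer flavoprotein system. Messenger RNA was sequenced from CD8 T cells, the killer lymphocytes, of wild-type mouse spleen and lymph nodes. The cells had been stimulated through CD3 and CD28 with antibodies, at about 100000 cells a sample, and were kept overnight in DAHB with oligomycin at 10 nM (DAHB+O), in DAHB at 20 mM (DAHB) or in NaCl at 20 mM, the control (NaCl). Oligomycin blocks the mitochondrial ATP synthase. The abbreviation DAHB is not spelled out in the labels, and its dose beside oligomycin is not stated there. Cells given oligomycin without DAHB were not analysed here. Each group had 3 libraries, all under 1 batch label. Separate mice or cultures are not named for the replicates, so every p-value reflects only how these samples spread, and that spread may be technical.

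The TCA cycle burns acetyl-CoA in the mitochondrial matrix and hands the electrons to the respiratory chain, while its intermediates leave for the synthesis of lipids, amino acids and nucleotides. Pyruvate enters through the mitochondrial pyruvate carrier and is turned into acetyl-CoA by pyruvate dehydrogenase, which kinases switch off and phosphatases switch on, or into oxaloacetate by pyruvate carboxylase. Long-chain fatty acids enter through the carnitine palmitoyltransferases and are shortened step by step, and their electrons pass through the electron transfer flavoprotein. Activated CD8 T cells are known for drawing strongly on glycolysis while they divide, and memory CD8 T cells for fatty acid oxidation.

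Depth was 28146402 to 39207045 whole reads per library, as recovered from the values. Values are normalized counts, that is, read counts divided by a size factor per library, and are relative to the other genes of that library. In such bulk samples a smaller number of cells of a type and less RNA per cell cannot be told apart. The 7 CD8 T cell markers were all in the table, and their summed level was 72795 to 78564 normalized counts in DAHB+O libraries, 105049 to 109292 in DAHB and 90299.7 to 96287 in NaCl. All 7 were lower in DAHB+O than in DAHB (limma, adjusted p under 0.05), beside 29.5% of all genes tested. In DAHB against NaCl 4 were higher and 1 lower, beside 35.5% and 38.4% of all genes tested. In DAHB+O against NaCl 6 were lower, beside 37.7%. The part of these markers in the results was not tested. Summed markers of B cells (456 to 708), CD4 T cells (155 to 254), natural killer cells (139 to 336), monocytes and macrophages (53.7 to 265), dendritic cells (150.0 to 406) and neutrophils (3.78 to 98.0) were low in every library. The highest members of these lists were Cd79b (405 ± 23.7 normalized counts in DAHB+O, 579 ± 5.14 in DAHB and 426 ± 1.87 in NaCl, SD, n = 3), Cd4 (231 ± 23.4, 216 ± 8.82 and 168 ± 18.4 in the same order), Klri2 (261 ± 11.4, 243 ± 42.4 and 73.2 ± 10.5), Lyz2 (182 ± 16, 38.8 ± 10.0 and 90.6 ± 22), Itgax (167 ± 31.2, 296 ± 53.7 and 108 ± 5.89) and Cxcr2 (4.46 ± 3.19, 29.1 ± 21.2 and 6.08 ± 3.89). The stromal and endothelial pair summed to 1121 to 1734, most of it Pecam1 (1409 ± 92.1, 1510.3 ± 64.5 and 1150.5 ± 48.2 in the same order), and neither red cell marker was among the genes analysed here. Col1a1, the other gene of the pair, was 4.73-fold higher in DAHB and 2.73-fold higher in DAHB+O than in NaCl (limma adjusted p = 6.65e-08 and 7.9e-06). It was 1.73-fold lower in DAHB+O than in DAHB (limma adjusted p = 0.00275).

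Together the 37 genes took 0.481% ± 0.00655 of all normalized counts in DAHB+O, 0.453% ± 0.00559 in DAHB and 0.455% ± 0.00295 in NaCl (SD, n = 3). Their summed level was 156052 ± 3311 normalized counts in DAHB+O, 156445 ± 3787 in DAHB and 160728 ± 2338 in NaCl. All genes together held 32206788 to 32742030 normalized counts in DAHB+O libraries, 34139491 to 34945383 in DAHB and 34967950 to 35525458 in NaCl. The larger share of the 37 genes in DAHB+O thus came with a smaller total and not with a larger summed level. The 12 TCA cycle enzymes summed to 80530.2 ± 1813 normalized counts in DAHB+O, 75373 ± 1695 in DAHB and 74156 ± 543 in NaCl. The 6 genes of pyruvate entry summed to 12449 ± 202 in DAHB+O, 12987 ± 379 in DAHB and 15459 ± 231 in NaCl. The 3 regulators of pyruvate dehydrogenase summed to 3193 ± 84.0 in DAHB+O, 4664 ± 45.7 in DAHB and 4821 ± 45.5 in NaCl. These sums follow their strongest genes and carry no test.

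Per kilobase of merged exons, the level spanned a wide range among the genes. Mdh2, the mitochondrial malate dehydrogenase, had the highest level, with 10343 normalized counts per kilobase in DAHB+O, 10905 in DAHB and 10406 in NaCl. Citrate synthase, encoded by Cs, followed with 8034 in DAHB+O, 7189 in DAHB and 5822 in NaCl. Pdp1, a phosphatase that switches pyruvate dehydrogenase on, had the lowest level, with 116 per kilobase in DAHB+O, 105 in DAHB and 95.5 in NaCl. Many neighbours in this order had overlapping values, and the order itself was not tested. In the plot of levels per kilobase the groups stand visibly apart for Idh1, Pcx and Etfb.

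**Figure D1:**
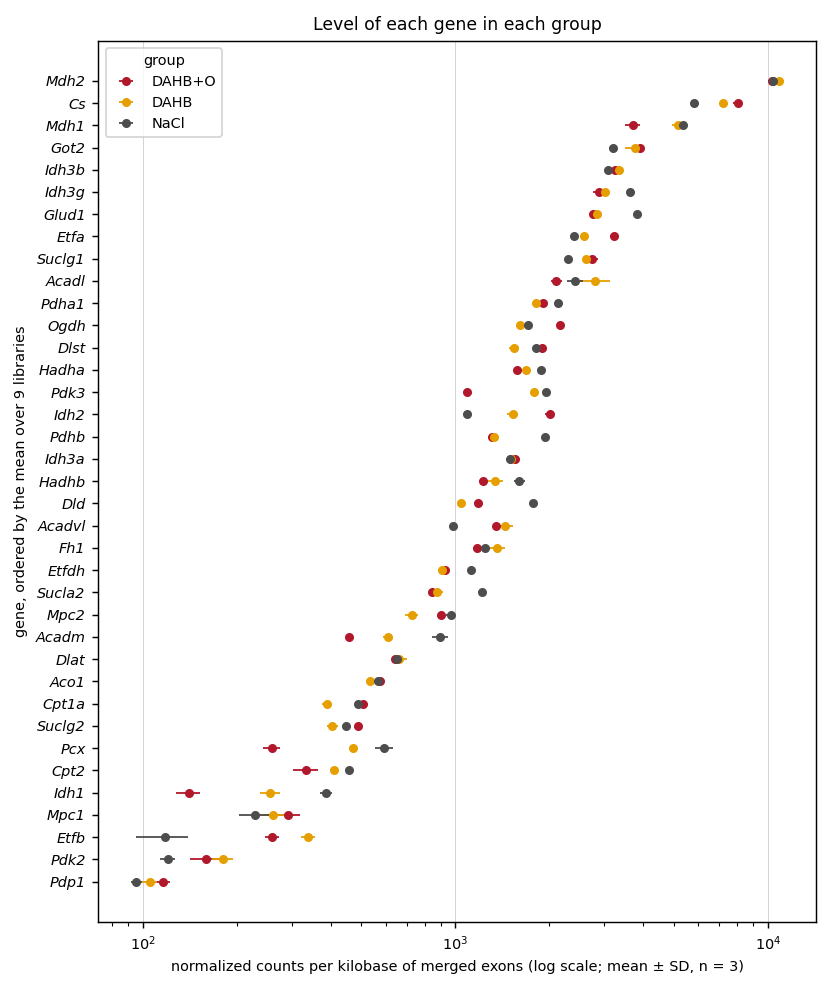
Level of each of the 37 genes in each group, as normalized counts per kilobase of merged exons on a log axis, with genes ordered by their mean over 9 libraries. Points are means and bars are SD of 3 libraries; Mdh2 and Cs are at the top and Pdp1 at the bottom in all 3 groups, and the 3 groups stand widely apart for Idh1 and Pcx.

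The comparison of DAHB with NaCl asks what the compound changed against salt at the same molar dose. Etfb, a subunit of the electron transfer flavoprotein, rose 2.88-fold in DAHB and was the only member past 2-fold, and Pdk2, Acadvl and Idh2 rose 1.49-fold, 1.46-fold and 1.4-fold. Gm45233 covers 69.1% of the merged exons of Etfb on the same strand, so the counts of Etfb depend on read assignment. Dld, the dihydrolipoamide dehydrogenase that pyruvate dehydrogenase and oxoglutarate dehydrogenase share, fell the most (1.7-fold), followed by Idh1, Acadm and Pdhb (1.51-fold, 1.47-fold and 1.45-fold). In the limma fit over 14169 genes, 11 of the 37 genes were higher, 19 lower and 7 not called in DAHB at an adjusted p under 0.05. Fold changes are on the log2(normalized count + 1) scale, which understates those of low genes. Among all genes tested 73.9% were called, 35.5% higher and 38.4% lower, so the count of members called in either direction lies near this background. Split by direction, members were lower more often and higher less often than all genes, a difference that was not tested. The median log2 fold change was -0.09 over the 37 genes and -0.02 over all genes tested. The DAHB and NaCl libraries did not overlap for 30 of the 37 genes, beside 75.6% of all genes. With quantile normalization the split became 14 higher and 13 lower. The counts over all genes under that setting are not given here, so a shift of the members alone is not read from it. Of the 30 calls, 20 (7 higher and 13 lower) were made under each of the 20 alternative settings. The same count was not made over all genes.

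The comparison of DAHB+O with DAHB asks what oligomycin changed in cells given DAHB. Ogdh, the first subunit of oxoglutarate dehydrogenase, rose 1.34-fold in DAHB+O, and Idh2, Cpt1a and Etfa rose by log2 fold changes of 0.39, 0.38 and 0.33. Idh1, the cytosolic NADP-linked isocitrate dehydrogenase, and Pcx, the pyruvate carboxylase, fell 1.83-fold and 1.82-fold, and Pdk3 and Mdh1 fell 1.64-fold and 1.39-fold. In all, 10 genes were higher, 10 lower and 17 not called, while 62.6% of all genes tested were called, 33.1% higher and 29.5% lower, so the members were called at a share near this background. The median log2 fold change was -0.04 over the 37 genes and 0.02 over all genes tested. Libraries of DAHB+O and DAHB did not overlap for 21 of the 37 genes, beside 67.6% of all genes. With quantile normalization 16 of the 37 genes were higher and 10 lower, again without the counts over all genes under that setting. Of the 20 calls, 18 (9 higher and 9 lower) were made under each of the 20 alternatives, a count not made over all genes.

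Set against NaCl, DAHB+O held the largest falls among the 37 genes. Etfb and Idh2 rose 2.21-fold and 1.84-fold, and Cs and Acadvl each rose 1.38-fold. Idh1 and Pcx fell 2.76-fold and 2.28-fold, and Acadm and Pdk3 fell 1.96-fold and 1.78-fold. In all, 12 genes were higher, 16 lower and 9 not called, beside 74.2% of all genes tested called, 36.5% higher and 37.7% lower, again a share near that of the members. The median log2 fold change was -0.02 over the 37 genes and -0.01 over all genes tested. The libraries did not overlap for 34 of the 37 genes, beside 78.6% of all genes. With quantile normalization 17 of the 37 genes were higher and 13 lower, and the counts over all genes are not given for that setting either. Of the 28 calls, 22 (9 higher and 13 lower) were made under each of the 20 alternatives, again not counted over all genes. The 3 comparisons share their libraries pairwise, so their values are given side by side below and are not independent of each other.

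**Figure D2:**
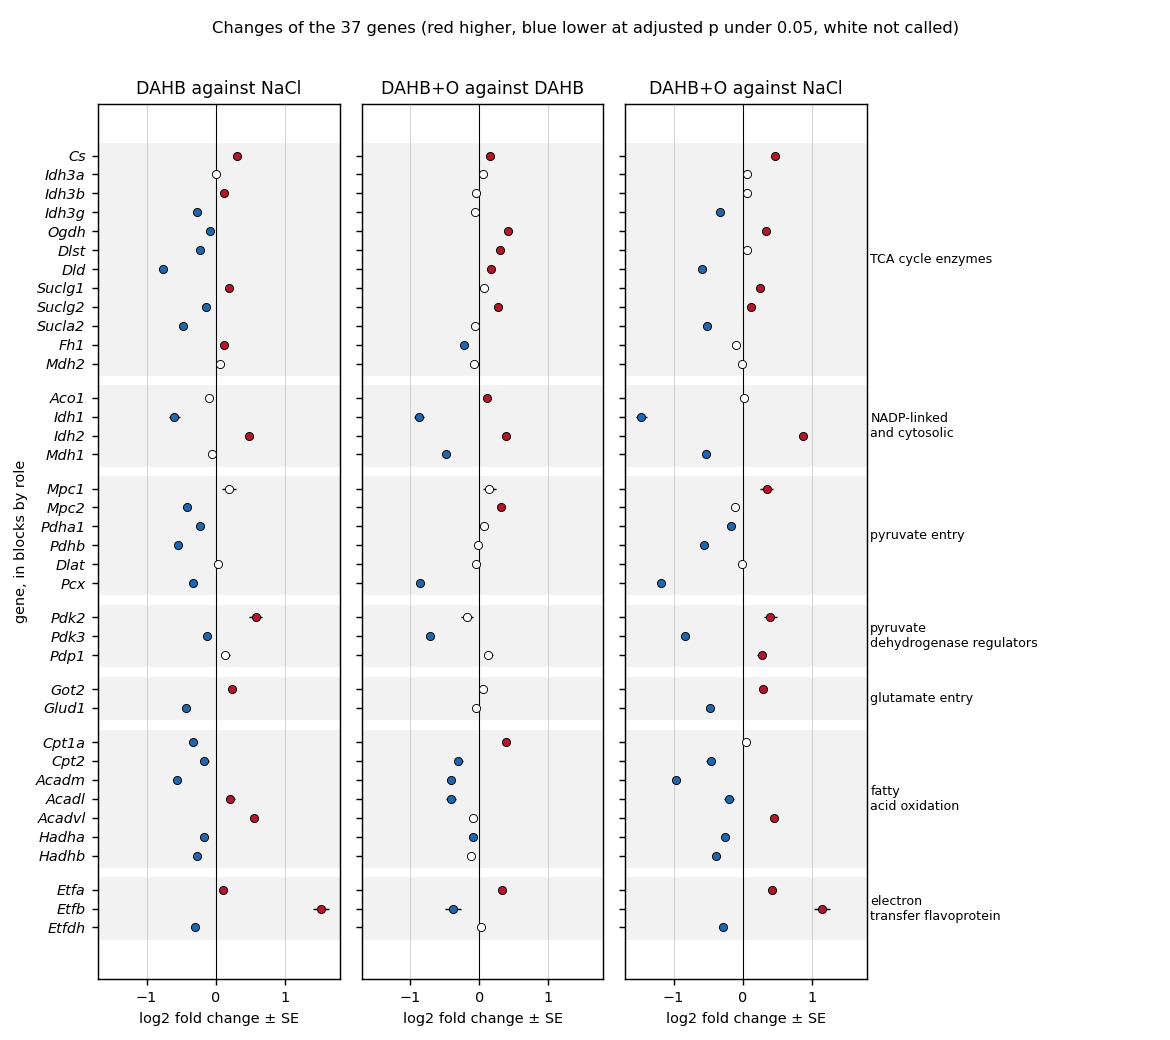
Log2 fold change with its SE for each of the 37 genes in the 3 comparisons, with genes in blocks by role; red points were higher and blue points lower at a limma adjusted p under 0.05, and white points were not called. Idh1 and Pcx lie farthest to the left and Etfb farthest to the right in DAHB+O against NaCl.

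Promoter sequences of members with large changes show which short motifs lie near their start sites. Windows from 250 bases before to 50 bases after the RefSeq gene start (GRCm38.p6) matched 35 of the 37 genes and were searched on both strands for the ERR element (TNAAGGTCA), the NRF1 motif, the E-box (CACGTG), the C/EBP-ATF element (TGATGNAAT) and the core of the cAMP response element (ACGTCA). Stretches that lie outside every annotated exon are printed 5′ to 3′ for 4 chosen genes among the largest changes, with the motif in capitals. They are not a full set. Mdh2 and Etfdh were tried as well and left out, since their stretches met an annotated exon, and Mdh2 was called in no comparison. Pdhb, Idh3g and Sucla2, which also hold a motif before the start, were not tried. The Ogdh stretch lies at chr11:6291506-6291596 on the plus strand and holds cores on both strands that overlap each other. The Etfb stretch lies at chr7:43444021-43444071 on the plus strand and holds the NRF1 motif on the opposite strand. The Pcx stretch lies at chr19:4510222-4510269 on the plus strand and the Pdk2 stretch at chr11:95041452-95041537 on the minus strand, and both hold an E-box.
Ogdh: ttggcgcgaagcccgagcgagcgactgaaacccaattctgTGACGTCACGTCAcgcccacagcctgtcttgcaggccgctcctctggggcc
Etfb: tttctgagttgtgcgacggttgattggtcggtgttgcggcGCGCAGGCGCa
Pcx: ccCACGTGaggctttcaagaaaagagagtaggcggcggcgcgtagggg
Pdk2: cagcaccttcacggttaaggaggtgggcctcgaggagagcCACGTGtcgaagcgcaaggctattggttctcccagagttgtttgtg
The core was in the first window of 7 of 35 members (20%), beside 12.1% of genes of the deposited table and 7.64% of all genes. These 7 were Dld, Fh1, Idh3g, Mdh2, Ogdh, Pdhb and Suclg1, of which Ogdh and Dld rose, Fh1 fell and the others were not called in DAHB+O against DAHB. The NRF1 motif was in the first window of 4 members (Dld, Etfb, Etfdh and Sucla2; 11.4%), beside 10.3% of genes of the table and 4.78% of all genes. Counted over all start sites, the NRF1 motif was in 4 of 44 member windows (9.09%), beside 9.53% of windows of the table. The E-box was in the first window of 2 members (Pcx and Pdk2; 5.71%), beside 10.1% of genes of the table and 7.24% of all genes, and the genes differed in direction in DAHB against NaCl. Over all start sites it was in 5 of 44 member windows (11.4%), the other 3 being later windows of Ogdh, beside 9.73% of windows of the table. The letters of the ERR element and of the C/EBP-ATF element were in none of the 35 windows, beside 0.717% and 0.454% of genes of the table and 1.26% and 0.969% of all genes. No match of one motif overlapped a match of another in these windows, and a match is a description of letters, not a test of binding.

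**Figure D3:**
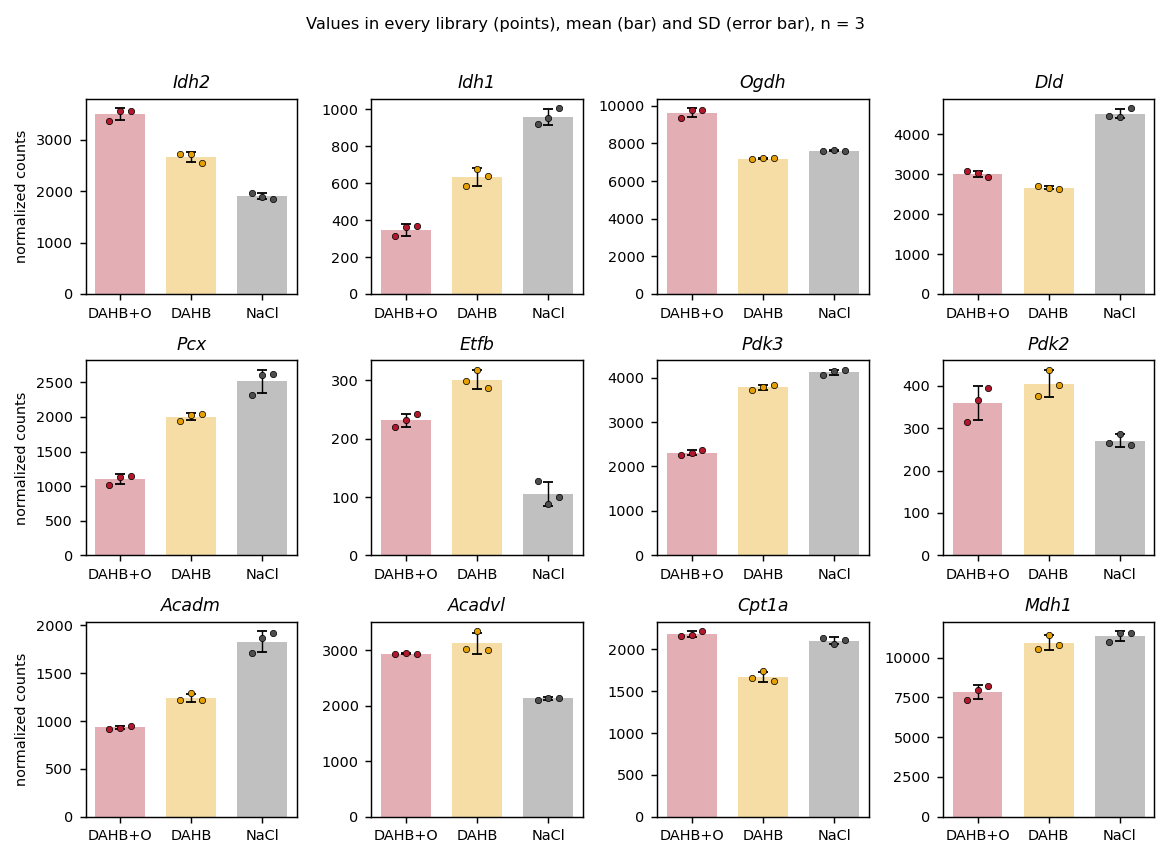
Normalized counts of 12 of the genes in every library (points), with the group mean (bar) and SD (error bar) of 3 libraries. Idh1 and Pcx are lowest in DAHB+O and highest in NaCl, Idh2 runs the other way, and Etfb and Acadvl are low in NaCl.

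Among the 12 TCA cycle enzymes, DAHB against NaCl gave 4 higher, 6 lower and 2 not called, DAHB+O against DAHB gave 5 higher, 1 lower and 6 not called, and DAHB+O against NaCl gave 4 higher, 3 lower and 5 not called. Among all genes tested 73.9%, 62.6% and 74.2% were called in these comparisons, and nothing is read from the counts of so few genes. Citrate synthase, which joins acetyl-CoA to oxaloacetate, is encoded by Cs (chromosome 10, 128337734 to 128362479, mm10 coordinates here and below). Cs had 22592, 23892 and 24037 normalized counts in DAHB+O libraries, 21002, 21456 and 20651 in DAHB libraries and 16898, 17208 and 17001 in NaCl libraries. The 3 groups did not overlap, and DAHB+O was highest and NaCl lowest. Cs rose in DAHB against NaCl (log2 0.30 ± 0.036 (SE), limma adjusted p = 1.71e-06), in DAHB+O against DAHB (log2 0.16 ± 0.036 (SE), limma adjusted p = 0.00122) and in DAHB+O against NaCl (log2 0.46 ± 0.036 (SE), limma adjusted p = 1.45e-08). Its transcripts share 92.4% identity over part of their length with Csl, which is also in the table, so reads of the pair could be split.

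The 3 subunits of the NAD-linked isocitrate dehydrogenase, Idh3a, Idh3b and Idh3g, were never all called in the same comparison. Idh3a, a catalytic subunit, averaged 4021 ± 66.9 normalized counts in DAHB+O, 3882 ± 143 in DAHB and 3860.2 ± 58.2 in NaCl (SD, n = 3) and was called in no comparison, though quantile normalization called it higher in all 3 (limma adjusted p = 0.0021 in DAHB against NaCl, 0.015 in DAHB+O against DAHB and 1.84e-05 in DAHB+O against NaCl). Idh3b averaged 5231 ± 174 normalized counts in DAHB+O, 5399 ± 162 in DAHB and 4984 ± 44.6 in NaCl, and rose in DAHB against NaCl (log2 0.11 ± 0.038 (SE), limma adjusted p = 0.0121), a call lost without DAHB replicate 2 (limma adjusted p = 0.0599). Idh3g averaged 3852 ± 179.5 normalized counts in DAHB+O, 4003 ± 159 in DAHB and 4814 ± 54 in NaCl, and fell in DAHB against NaCl (log2 -0.27 ± 0.042 (SE), limma adjusted p = 3.95e-05) and in DAHB+O against NaCl (log2 -0.32 ± 0.042 (SE), limma adjusted p = 5.44e-06). For Idh3g the DAHB+O and DAHB libraries overlapped and all 6 lay below the NaCl libraries.

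Oxoglutarate dehydrogenase, which releases carbon dioxide in turning 2-oxoglutarate to succinyl-CoA, is built from the products of Ogdh (chromosome 11, 6291633 to 6356642), Dlst (chromosome 12, 85110833 to 85134845) and Dld (chromosome 12, 31331277 to 31351453). Ogdh had 9361, 9785 and 9757 normalized counts in DAHB+O libraries, 7174, 7201 and 7219 in DAHB libraries and 7587, 7630.0 and 7614 in NaCl libraries. All DAHB+O libraries lay above the others, and the DAHB and NaCl libraries lay close together without overlap. Ogdh rose in DAHB+O against DAHB with a log2 fold change of 0.42 ± 0.033 (SE) and a limma adjusted p of 3.73e-08, and in DAHB+O against NaCl with a log2 fold change of 0.34 ± 0.033 (SE) and a limma adjusted p of 1.81e-07. Its small fall in DAHB against NaCl (log2 -0.08 ± 0.033 (SE), limma adjusted p = 0.0383) was called in 8 of 20 alternatives only. That call was lost, among others, without any of the 3 NaCl libraries, DAHB replicate 1 or 2, or DAHB+O replicate 2 or 3 (limma adjusted p = 0.0507 to 0.0956), and with quantile normalization the sign turned to a log2 fold change of 0.03. Dlst, the core subunit, averaged 5239 ± 16.5 normalized counts in DAHB+O, 4261 ± 158 in DAHB and 5002 ± 28.4 in NaCl (SD, n = 3). It fell in DAHB against NaCl (log2 -0.23 ± 0.036 (SE), limma adjusted p = 3.12e-05) and rose in DAHB+O against DAHB (log2 0.30 ± 0.036 (SE), limma adjusted p = 3.82e-06). Dld had 3074, 3031 and 2919.8 normalized counts in DAHB+O libraries, 2708, 2663 and 2621 in DAHB libraries and 4463, 4446 and 4655 in NaCl libraries. NaCl libraries were far above the others, and DAHB+O libraries lay above DAHB libraries. Dld fell in DAHB against NaCl with a log2 fold change of -0.76 ± 0.038 (SE) and a limma adjusted p of 1.04e-10, and in DAHB+O against NaCl with a log2 fold change of -0.59 ± 0.038 (SE) and a limma adjusted p of 1.77e-09, while it rose in DAHB+O against DAHB with a log2 fold change of 0.18 ± 0.038 (SE) and a limma adjusted p of 0.000882.

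Succinyl-CoA synthetase pairs a common subunit, encoded by Suclg1, with a GTP-linked subunit, encoded by Suclg2, or an ATP-linked subunit, encoded by Sucla2. Suclg1 averaged 4169.5 ± 179 normalized counts in DAHB+O, 3988 ± 93.3 in DAHB and 3500.2 ± 84.4 in NaCl (SD, n = 3), and rose in DAHB against NaCl (log2 0.19 ± 0.04 (SE), limma adjusted p = 0.000632) and in DAHB+O against NaCl (log2 0.25 ± 0.04 (SE), limma adjusted p = 4.36e-05). Suclg2 had 1833, 1867 and 1820.1 normalized counts in DAHB+O libraries, 1511, 1587 and 1470.3 in DAHB libraries and 1685, 1634 and 1736 in NaCl libraries. DAHB+O libraries were highest and DAHB libraries lowest, without overlap. Suclg2 rose in DAHB+O against DAHB with a log2 fold change of 0.27 ± 0.044 (SE) and a limma adjusted p of 6.63e-05. It fell in DAHB against NaCl (log2 -0.15 ± 0.044 (SE), limma adjusted p = 0.0074), a call lost with quantile normalization, which turned the log2 fold change to 0.02. It rose in DAHB+O against NaCl (log2 0.13 ± 0.044 (SE), limma adjusted p = 0.0167), a call lost without NaCl replicate 2 or DAHB+O replicate 2 (limma adjusted p = 0.0781 and 0.0590). Sucla2 had 1877, 1862 and 1910.2 normalized counts in DAHB+O libraries, 1987, 2018 and 1863 in DAHB libraries and 2731, 2635 and 2753 in NaCl libraries. All 6 libraries with DAHB lay below the NaCl libraries. Sucla2 fell in DAHB against NaCl with a log2 fold change of -0.47 ± 0.042 (SE) and a limma adjusted p of 8.08e-08, and in DAHB+O against NaCl with a log2 fold change of -0.52 ± 0.042 (SE) and a limma adjusted p of 2.25e-08, and it was not called in DAHB+O against DAHB (log2 -0.05 ± 0.042 (SE), limma adjusted p = 0.278). A copy outside the table, Gm15163, shares 98.9% identity with part of Suclg2.

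Fumarase, encoded by Fh1, averaged 3086 ± 71.9 normalized counts in DAHB+O, 3585 ± 211 in DAHB and 3286 ± 85.8 in NaCl (SD, n = 3) and fell in DAHB+O against DAHB with a log2 fold change of -0.21 ± 0.045 (SE) and a limma adjusted p of 0.000702. Its rise in DAHB against NaCl (log2 0.12 ± 0.045 (SE), limma adjusted p = 0.0214) was lost without NaCl replicate 2 or 3 or DAHB replicate 1 or 2 (limma adjusted p = 0.0686 to 0.0862). Mdh2, which closes the cycle by making oxaloacetate, averaged 15059 ± 469 normalized counts in DAHB+O, 15878 ± 515 in DAHB and 15152 ± 447 in NaCl (SD, n = 3) and was called in no comparison. Its log2 fold change was 0.07 ± 0.039 (SE) in DAHB against NaCl, -0.08 ± 0.039 in DAHB+O against DAHB and -0.01 ± 0.039 in DAHB+O against NaCl. Quantile normalization, TMM rescaling and edgeR turned the sign of the last, and quantile normalization that of the one before it. With quantile normalization Mdh2 passed the threshold in all 3 comparisons, with a higher level in the group named first.

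The 4 NADP-linked or cytosolic partners of the cycle included a pair that moved in opposite directions. Idh2 (chromosome 7, 80094846 to 80115392) encodes the mitochondrial and Idh1 (chromosome 1, 65158616 to 65186500) the cytosolic isocitrate dehydrogenase that uses NADP. Idh2 had 3365, 3563 and 3572 normalized counts in DAHB+O libraries, 2719, 2723 and 2549.6 in DAHB libraries and 1966, 1895 and 1846 in NaCl libraries. The 3 groups did not overlap, with DAHB+O highest and NaCl lowest. Idh2 rose in DAHB against NaCl (log2 0.49 ± 0.043 (SE), limma adjusted p = 7.74e-08), in DAHB+O against DAHB (log2 0.39 ± 0.043 (SE), limma adjusted p = 1.46e-06) and in DAHB+O against NaCl (log2 0.88 ± 0.043 (SE), limma adjusted p = 9.43e-11). Idh1 had 311, 361 and 369.6 normalized counts in DAHB+O libraries, 584, 678 and 640.3 in DAHB libraries and 920.4, 951 and 1006 in NaCl libraries. Here too the groups did not overlap, with NaCl highest and DAHB+O lowest. Idh1 fell in DAHB against NaCl (log2 -0.60 ± 0.076 (SE), limma adjusted p = 3.91e-06), in DAHB+O against DAHB (log2 -0.87 ± 0.076 (SE), limma adjusted p = 1.26e-07) and in DAHB+O against NaCl (log2 -1.47 ± 0.076 (SE), limma adjusted p = 1.67e-10). Mdh1 had 7366, 7970.0 and 8217 normalized counts in DAHB+O libraries, 10542, 11452 and 10796 in DAHB libraries and 10993, 11551 and 11536 in NaCl libraries. This cytosolic malate dehydrogenase was lower in every DAHB+O library than in any other, while DAHB and NaCl libraries overlapped. Mdh1 fell in DAHB+O against DAHB with a log2 fold change of -0.48 ± 0.045 (SE) and a limma adjusted p of 2.91e-07, and in DAHB+O against NaCl with a log2 fold change of -0.53 ± 0.045 (SE) and a limma adjusted p of 4.09e-08, and was not called in DAHB against NaCl (log2 -0.06 ± 0.045 (SE), limma adjusted p = 0.276). Aco1, the cytosolic aconitase, also known as an iron-regulatory protein, averaged 2201 ± 63.9 normalized counts in DAHB+O, 2042 ± 47.9 in DAHB and 2174 ± 75.7 in NaCl (SD, n = 3). Its rise in DAHB+O against DAHB (log2 0.11 ± 0.042 (SE), limma adjusted p = 0.038) was made in 13 of 20 alternatives. That call was lost with edgeR (edgeR adjusted p = 0.0622), with DESeq2 (DESeq2 adjusted p = 0.105) and with only the 6 libraries compared (limma adjusted p = 0.0551). Leaving out NaCl replicate 2, DAHB replicate 2 or DAHB+O replicate 2 or 3 also ended it (limma adjusted p = 0.0528 to 0.146).

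Of the 6 genes of pyruvate entry, none was higher, 4 lower and 2 not called in DAHB against NaCl. In DAHB+O against DAHB 1 was higher, 1 lower and 4 not called, and in DAHB+O against NaCl 1 was higher, 3 lower and 2 not called. The shares called over all genes were 73.9%, 62.6% and 74.2%, and 4 of 6 called lies near the first of them. Mpc1 and Mpc2 encode the subunits of the mitochondrial pyruvate carrier. Mpc1 had 454, 379 and 449 normalized counts in DAHB+O libraries, 429, 358 and 368 in DAHB libraries and 301, 330.3 and 377 in NaCl libraries. The groups overlapped except DAHB+O and NaCl, and Mpc1 rose in that comparison (log2 0.35 ± 0.1 (SE), limma adjusted p = 0.00557), though not with quantile normalization (limma adjusted p = 0.0912). Of its merged exons, 23.4% are overlapped by 4930506C21Rik on the opposite strand. Mpc2 had 927, 912 and 927 normalized counts in DAHB+O libraries, 742, 781 and 708 in DAHB libraries and 964, 1025 and 983 in NaCl libraries. DAHB libraries were lowest, with no overlap between the groups. Mpc2 fell in DAHB against NaCl with a log2 fold change of -0.41 ± 0.052 (SE) and a limma adjusted p of 3.7e-06, and rose in DAHB+O against DAHB with a log2 fold change of 0.31 ± 0.052 (SE) and a limma adjusted p of 0.000105.

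Pyruvate dehydrogenase is formed by the products of Pdha1, Pdhb, Dlat and Dld. Pdha1 had 5532, 5284 and 5453 normalized counts in DAHB+O libraries, 5151, 5325 and 5024 in DAHB libraries and 6078, 6021 and 6113 in NaCl libraries. All 6 libraries with DAHB lay below the NaCl libraries. Pdha1 fell in DAHB against NaCl (log2 -0.23 ± 0.036 (SE), limma adjusted p = 2.75e-05). It also fell in DAHB+O against NaCl (log2 -0.16 ± 0.036 (SE), limma adjusted p = 0.000741), where quantile normalization turned the log2 fold change to 0.03 and ended the call. Map3k15 overlaps 21.2% of its merged exons on the opposite strand. Pdhb had 1949.8, 1971 and 2015 normalized counts in DAHB+O libraries, 2058, 2062 and 1916 in DAHB libraries and 2850.3, 2973 and 2948 in NaCl libraries. The DAHB+O and DAHB libraries overlapped and all lay below NaCl. Pdhb fell in DAHB against NaCl with a log2 fold change of -0.54 ± 0.042 (SE) and a limma adjusted p of 1.49e-08, and in DAHB+O against NaCl with a log2 fold change of -0.56 ± 0.042 (SE) and a limma adjusted p of 9.01e-09. Its copy Gm6123, outside the table, is nearly identical to part of it. Dlat, the core acetyltransferase, averaged 2597 ± 54.4 normalized counts in DAHB+O, 2676 ± 152 in DAHB and 2625 ± 66.9 in NaCl (SD, n = 3), with overlapping groups throughout and no call. With quantile normalization it was higher against NaCl in both DAHB (limma adjusted p = 0.000773) and DAHB+O (limma adjusted p = 0.0030).

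Pyruvate carboxylase, which refills the cycle with oxaloacetate, is encoded by Pcx (chromosome 19, 4510472 to 4621752). Pcx had 1023, 1134 and 1146 normalized counts in DAHB+O libraries, 1941, 2024 and 2044 in DAHB libraries and 2318, 2603 and 2619 in NaCl libraries. The 3 groups did not overlap, with NaCl highest and DAHB+O lowest. Pcx fell in DAHB against NaCl with a log2 fold change of -0.33 ± 0.057 (SE) and a limma adjusted p of 9.38e-05. It also fell in DAHB+O against DAHB, with a log2 fold change of -0.86 ± 0.057 (SE) and a limma adjusted p of 5.7e-09, and in DAHB+O against NaCl with a log2 fold change of -1.19 ± 0.057 (SE) and a limma adjusted p of 6.25e-11.

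The 3 regulators of pyruvate dehydrogenase did not move together. Pdk2 (chromosome 11, 95026258 to 95041354) and Pdk3 (chromosome X, 93764607 to 93832201) encode kinases that switch the enzyme off. Pdk3 had 2265, 2306 and 2367 normalized counts in DAHB+O libraries, 3730.5, 3780.3 and 3843 in DAHB libraries and 4054, 4139.9 and 4167 in NaCl libraries. The groups did not overlap, with DAHB+O lowest by a wide gap. Pdk3 fell in DAHB+O against DAHB with a log2 fold change of -0.71 ± 0.036 (SE) and a limma adjusted p of 3.42e-10, and in DAHB+O against NaCl with a log2 fold change of -0.83 ± 0.036 (SE) and a limma adjusted p of 2.21e-11. Its small fall in DAHB against NaCl (log2 -0.12 ± 0.036 (SE), limma adjusted p = 0.00631) was lost with quantile normalization, at a log2 fold change of 0.02. Pdk2 had 315, 365 and 395 normalized counts in DAHB+O libraries, 376, 438 and 400.4 in DAHB libraries and 265, 287 and 259 in NaCl libraries. NaCl libraries lay below all others, and the DAHB+O and DAHB libraries overlapped. Pdk2 rose in DAHB against NaCl with a log2 fold change of 0.58 ± 0.092 (SE) and a limma adjusted p of 3.69e-05. It also rose in DAHB+O against NaCl (log2 0.40 ± 0.092 (SE), limma adjusted p = 0.00101), though not with quantile normalization (limma adjusted p = 0.0735). Pdp1, the opposing phosphatase, averaged 522 ± 31 normalized counts in DAHB+O, 475 ± 26.9 in DAHB and 430.4 ± 17.1 in NaCl (SD, n = 3) and rose in DAHB+O against NaCl (log2 0.28 ± 0.069 (SE), limma adjusted p = 0.00218).

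The pair that brings glutamate carbon into the cycle was split. Glud1, glutamate dehydrogenase, and Got2, the mitochondrial aspartate aminotransferase, both make 2-oxoglutarate from glutamate. Glud1 had 9201, 9557 and 9253 normalized counts in DAHB+O libraries, 9612, 9853 and 9438 in DAHB libraries and 12605, 13135 and 13164 in NaCl libraries. The DAHB+O and DAHB libraries overlapped, and all lay below NaCl. Glud1 fell in DAHB against NaCl with a log2 fold change of -0.43 ± 0.035 (SE) and a limma adjusted p of 2.79e-08, and in DAHB+O against NaCl with a log2 fold change of -0.47 ± 0.035 (SE) and a limma adjusted p of 8.68e-09. Got2 had 9788, 9831 and 10082 normalized counts in DAHB+O libraries, 9921, 9861 and 8722 in DAHB libraries and 7857, 8181 and 8181 in NaCl libraries. Here all 6 libraries with DAHB lay above NaCl. Got2 rose in DAHB against NaCl with a log2 fold change of 0.23 ± 0.046 (SE) and a limma adjusted p of 0.000302, and in DAHB+O against NaCl with a log2 fold change of 0.29 ± 0.046 (SE) and a limma adjusted p of 3.21e-05. Neither was called in DAHB+O against DAHB, except with quantile normalization, which called both higher. Got2 shares 99.1% identity over part of its length with Got2-ps1, also in the table, and 98.8% with Gm10874, and its split from them is uncertain.

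Of the 7 genes of fatty acid oxidation, 2 were higher and 5 lower in DAHB against NaCl, 1 higher, 4 lower and 2 not called in DAHB+O against DAHB, and 1 higher, 5 lower and 1 not called in DAHB+O against NaCl. Over all genes tested the shares called were 73.9%, 62.6% and 74.2%. Cpt1a (chromosome 19, 3322334 to 3385733) encodes the outer-membrane carnitine palmitoyltransferase, known as the gate of long-chain fatty acid entry, and Cpt2 its partner on the inner membrane. Cpt1a had 2158, 2170.0 and 2220.0 normalized counts in DAHB+O libraries, 1656, 1742 and 1626 in DAHB libraries and 2142, 2065 and 2113 in NaCl libraries. DAHB libraries lay below all others. Cpt1a fell in DAHB against NaCl with a log2 fold change of -0.33 ± 0.041 (SE) and a limma adjusted p of 2.97e-06, rose in DAHB+O against DAHB with a log2 fold change of 0.38 ± 0.041 (SE) and a limma adjusted p of 1.13e-06, and was not called in DAHB+O against NaCl (log2 0.05 ± 0.041 (SE), limma adjusted p = 0.271) except with quantile normalization (limma adjusted p = 0.000167). Cpt2 had 724, 869 and 776 normalized counts in DAHB+O libraries, 981, 984 and 943 in DAHB libraries and 1079.7, 1119 and 1058 in NaCl libraries. Here DAHB+O was lowest and NaCl highest, without overlap. Cpt2 fell in DAHB+O against DAHB (log2 -0.30 ± 0.062 (SE), limma adjusted p = 0.000649) and in DAHB+O against NaCl (log2 -0.46 ± 0.062 (SE), limma adjusted p = 6.79e-06). Its fall in DAHB against NaCl (log2 -0.16 ± 0.062 (SE), limma adjusted p = 0.0274) was made in 14 of 20 alternatives. That call was lost with quantile normalization, edgeR and DESeq2, and without NaCl replicate 1 or 2 or DAHB replicate 3 (limma adjusted p = 0.0513 to 0.0942).

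The acyl-CoA dehydrogenases, which take the first step of each round of shortening, differed among themselves. Acadm (chromosome 3, 153922357 to 153944632) encodes the medium-chain enzyme. Acadm had 922, 925 and 952 normalized counts in DAHB+O libraries, 1219, 1293 and 1218 in DAHB libraries and 1707, 1863 and 1921 in NaCl libraries. The groups did not overlap, with NaCl highest and DAHB+O lowest. Acadm fell in DAHB against NaCl (log2 -0.56 ± 0.051 (SE), limma adjusted p = 1.12e-07), in DAHB+O against DAHB (log2 -0.41 ± 0.051 (SE), limma adjusted p = 5.27e-06) and in DAHB+O against NaCl (log2 -0.97 ± 0.051 (SE), limma adjusted p = 2.1e-10). Acadvl (chromosome 11, 70010183 to 70015411) encodes the very-long-chain enzyme. Acadvl had 2927, 2943 and 2935 normalized counts in DAHB+O libraries, 3026, 3347 and 3005 in DAHB libraries and 2109.8, 2144 and 2146 in NaCl libraries. NaCl libraries lay below all others, and Acadvl rose in DAHB against NaCl (log2 0.55 ± 0.044 (SE), limma adjusted p = 1.97e-08) and in DAHB+O against NaCl (log2 0.46 ± 0.044 (SE), limma adjusted p = 1.47e-07). Dvl2 overlaps 45.0% of its merged exons on the opposite strand, and the strand setting of the counting is not given in the sources used here. Acadl had 3857, 4109 and 4158 normalized counts in DAHB+O libraries, 4689.7, 5624 and 5843 in DAHB libraries and 4341, 4831 and 4747 in NaCl libraries. The long-chain enzyme was lowest in DAHB+O, and DAHB and NaCl libraries overlapped. Acadl fell in DAHB+O against DAHB with a log2 fold change of -0.41 ± 0.068 (SE) and a limma adjusted p of 8.92e-05. Its rise in DAHB against NaCl (log2 0.21 ± 0.068 (SE), limma adjusted p = 0.0113) was lost without NaCl replicate 1 or DAHB replicate 2 or 3 (limma adjusted p = 0.0550 to 0.0601). Its fall in DAHB+O against NaCl (log2 -0.20 ± 0.068 (SE), limma adjusted p = 0.0157) was lost with quantile normalization and without NaCl replicate 2 or 3 or DAHB+O replicate 1 (limma adjusted p = 0.0570 to 0.0692).

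Hadha and Hadhb encode the subunits of the trifunctional protein, which completes the round for long chains. Hadha averaged 6338 ± 159.6 normalized counts in DAHB+O, 6755 ± 116 in DAHB and 7566 ± 239 in NaCl (SD, n = 3), and fell in DAHB against NaCl (log2 -0.16 ± 0.037 (SE), limma adjusted p = 0.000897) and in DAHB+O against NaCl (log2 -0.26 ± 0.037 (SE), limma adjusted p = 1.37e-05). Both calls were lost with quantile normalization (limma adjusted p = 0.261 and 0.146). Its fall in DAHB+O against DAHB (log2 -0.09 ± 0.037 (SE), limma adjusted p = 0.0401) was made in 13 of 20 alternatives. That call was lost with quantile normalization (limma adjusted p = 0.75) and with only the 6 libraries compared (limma adjusted p = 0.0591). Leaving out NaCl replicate 3, DAHB replicate 1 or 2 or DAHB+O replicate 1 or 2 also ended it (limma adjusted p = 0.0567 to 0.149). Hadhb averaged 2562 ± 86.4 normalized counts in DAHB+O, 2779 ± 178 in DAHB and 3340.2 ± 139.5 in NaCl (SD, n = 3). It fell in DAHB against NaCl (log2 -0.27 ± 0.05 (SE), limma adjusted p = 0.000195), a call lost with quantile normalization (limma adjusted p = 0.0636), and in DAHB+O against NaCl (log2 -0.38 ± 0.05 (SE), limma adjusted p = 5.14e-06). Its copy Gm13910, outside the table, shares 99.8% identity with it.

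The electron transfer flavoprotein carries electrons from the acyl-CoA dehydrogenases, and Etfdh encodes the enzyme that passes them to ubiquinone. Etfb (chromosome 7, 43444083 to 43457800) had a low level in all libraries. Etfb had 219.9, 232 and 243 normalized counts in DAHB+O libraries, 299.5, 319 and 287 in DAHB libraries and 127, 88.5 and 99.7 in NaCl libraries. The groups did not overlap, with DAHB highest and NaCl lowest. Etfb rose in DAHB against NaCl with a log2 fold change of 1.53 ± 0.12 (SE) and a limma adjusted p of 1.58e-08, and in DAHB+O against NaCl with a log2 fold change of 1.15 ± 0.12 (SE) and a limma adjusted p of 4.02e-07, and fell in DAHB+O against DAHB with a log2 fold change of -0.38 ± 0.12 (SE) and a limma adjusted p of 0.0116. The annotated gene Gm45233 covers 69.1% of its merged exons on the same strand, so its counts depend on how reads shared by the pair were assigned, which is not given in the sources used here. Etfa had 4349, 4566 and 4578 normalized counts in DAHB+O libraries, 3626, 3583 and 3548 in DAHB libraries and 3381, 3314 and 3315 in NaCl libraries. Etfa, the partner subunit, was highest in DAHB+O without overlap. It rose in DAHB+O against DAHB with a log2 fold change of 0.33 ± 0.036 (SE) and a limma adjusted p of 1.42e-06, and in DAHB+O against NaCl with a log2 fold change of 0.43 ± 0.036 (SE) and a limma adjusted p of 3.35e-08. Its rise in DAHB against NaCl (log2 0.10 ± 0.036 (SE), limma adjusted p = 0.0168) was lost without NaCl replicate 2 or 3 (limma adjusted p = 0.0548 and 0.0531). Etfdh averaged 2232 ± 32 normalized counts in DAHB+O, 2196 ± 67.8 in DAHB and 2712 ± 54.5 in NaCl (SD, n = 3), and fell in DAHB against NaCl (log2 -0.30 ± 0.039 (SE), limma adjusted p = 4.46e-06) and in DAHB+O against NaCl (log2 -0.28 ± 0.039 (SE), limma adjusted p = 1.05e-05).

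Ratios of genes that act at the same or neighbouring steps do not depend on the scaling of a library. They are ratios of normalized counts that are not divided by length, so their changes between groups are read, not their sizes. The log2 ratio of Idh2 to Idh1 was 3.43, 3.30 and 3.27 in DAHB+O libraries, 1.99 to 2.22 in DAHB libraries and 1.09, 0.99 and 0.88 in NaCl libraries. The ratio was thus 2.12-fold higher in DAHB than in NaCl and 5.08-fold higher in DAHB+O than in NaCl, and in DAHB+O it lay 1.26 above DAHB on the log2 scale, with no overlap. Suclg2 against Sucla2 averaged -0.03 ± 0.0366 in DAHB+O, -0.36 ± 0.0298 in DAHB and -0.68 ± 0.0167 in NaCl (log2 ratio, SD, n = 3), the NaCl libraries being lowest. Pdk3 against Pdk2 averaged 2.69 ± 0.135 in DAHB+O, 3.22 ± 0.104 in DAHB and 3.93 ± 0.0784 in NaCl. Acadl against Acadvl averaged 0.46 ± 0.0551 in DAHB+O, 0.78 ± 0.166 in DAHB and 1.12 ± 0.0694 in NaCl. None of these 4 ratios overlapped between any pair of groups, and the DAHB libraries lay between the others each time.

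The remaining ratios set one group apart from the others. Mpc1 against Mpc2 averaged -1.11 ± 0.131 in DAHB+O, -0.95 ± 0.167 in DAHB and -1.56 ± 0.159 in NaCl (log2 ratio, SD, n = 3), with NaCl below the rest. Got2 against Glud1 averaged 0.08 ± 0.0417 in DAHB+O, -0.02 ± 0.0823 in DAHB and -0.68 ± 0.00218 in NaCl, again with NaCl lowest. Pcx against Pdha1 averaged -2.30 ± 0.116 in DAHB+O, -1.37 ± 0.0605 in DAHB and -1.27 ± 0.101 in NaCl, with DAHB+O lowest. In these 3 ratios the other groups overlapped. Cpt1a against Cpt2 averaged 1.47 ± 0.134 in DAHB+O, 0.79 ± 0.0347 in DAHB and 0.96 ± 0.063 in NaCl, with no overlap and DAHB lowest. In two-sided exact permutation tests of 24 ratio differences, 21 reached p = 0.10, the smallest that 3 libraries against 3 can give, and their Benjamini-Hochberg adjusted p was 0.114, so none could pass 0.05.

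**Figure D4:**
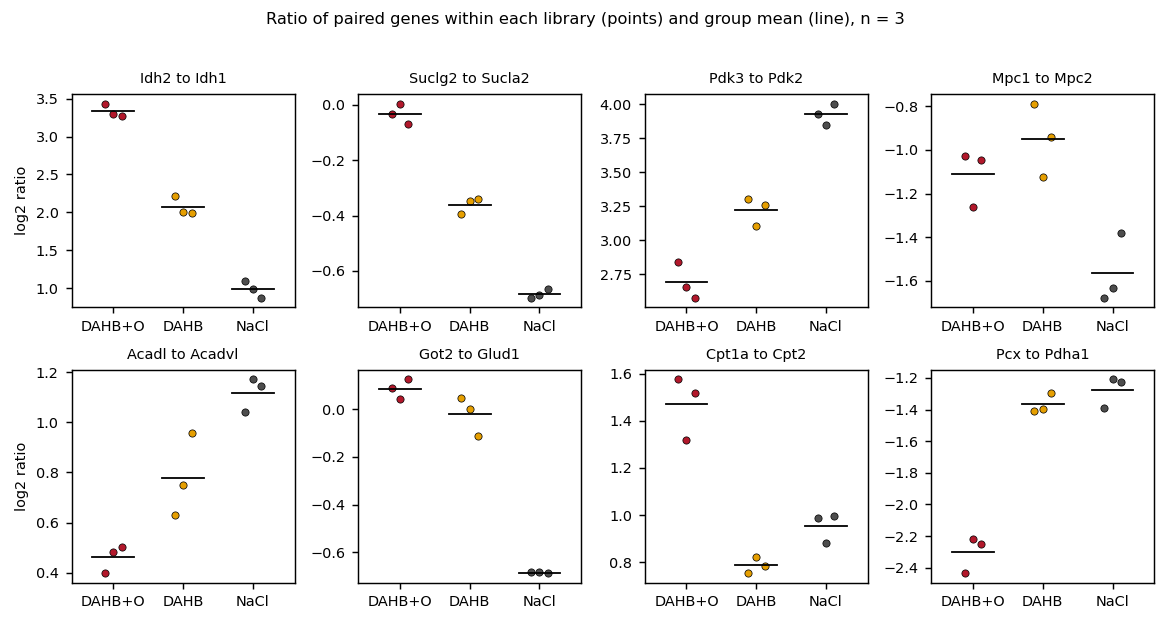
Log2 ratio of normalized counts of paired genes in every library (points) with the group mean (line) of 3 libraries, for 8 pairs. The Idh2 to Idh1 ratio is 3.33 in DAHB+O, 2.07 in DAHB and 0.99 in NaCl, and DAHB+O stands apart for Pcx to Pdha1 and NaCl for Got2 to Glud1.

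Other genes of the same pathways were counted from lists kept apart from the 37. Of 30 tested genes of the TCA cycle and of pyruvate handling, 5 were higher and 16 lower in DAHB against NaCl (median log2 fold change -0.20), 11 higher and 11 lower in DAHB+O against DAHB (-0.10), and 11 higher and 15 lower in DAHB+O against NaCl (-0.11). Shares over all genes tested were 73.9%, 62.6% and 74.2% called in these comparisons. By direction they were 35.5%, 33.1% and 36.5% higher and 38.4%, 29.5% and 37.7% lower. Pck2, the mitochondrial phosphoenolpyruvate carboxykinase, averaged 5479.5 ± 290.4 normalized counts in DAHB+O, 1035 ± 41.6 in DAHB and 2223 ± 48.7 in NaCl (SD, n = 3). It fell 2.15-fold in DAHB against NaCl and rose 5.29-fold in DAHB+O against DAHB (limma adjusted p = 2.4e-14). Gpt2, the mitochondrial alanine aminotransferase, averaged 3494 ± 331 normalized counts in DAHB+O, 719 ± 81.4 in DAHB and 849 ± 78.9 in NaCl and rose 4.86-fold in DAHB+O against DAHB (log2 2.28 ± 0.087 (SE), limma adjusted p = 1.91e-11). Me2, the mitochondrial malic enzyme, averaged 5485 ± 140.1 normalized counts in DAHB+O, 14590.1 ± 1066 in DAHB and 15632 ± 439 in NaCl and fell 2.66-fold in DAHB+O against DAHB (log2 -1.41 ± 0.048 (SE), limma adjusted p = 6.8e-12), and Me1, its cytosolic counterpart, fell 3.51-fold at a low level (18.5 ± 4.2 normalized counts in DAHB+O, 68.3 ± 18.5 in DAHB and 52.8 ± 8.07 in NaCl). Acly, which splits exported citrate into acetyl-CoA, averaged 8633 ± 267 normalized counts in DAHB+O, 13109 ± 292 in DAHB and 22119 ± 351 in NaCl and fell in both, 1.52-fold in DAHB+O against DAHB and 1.69-fold in DAHB against NaCl. Pdk1, another pyruvate dehydrogenase kinase, averaged 7269 ± 505 normalized counts in DAHB+O, 12728 ± 759 in DAHB and 13516 ± 433 in NaCl; it fell 1.75-fold in DAHB+O against DAHB and was not called in DAHB against NaCl (log2 -0.09 ± 0.053 (SE), limma adjusted p = 0.147). Pdk4 averaged 3.79 ± 2.56 normalized counts in DAHB+O, 3.03 ± 1.12 in DAHB and 3.8 ± 2.41 in NaCl and was too low to be tested.

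Further genes of this list passed the test. In DAHB against NaCl, Slc25a12, Slc25a11 and Sdhc rose 1.37-fold, 1.3-fold and 1.19-fold, and Pdp2 and Slc25a10 fell 1.81-fold and 1.76-fold. Slc25a10, Slc25a11 and Slc25a12 encode carriers of dicarboxylates, 2-oxoglutarate, and aspartate with glutamate, Sdhc a subunit of succinate dehydrogenase and Pdp2 a pyruvate dehydrogenase phosphatase. With oligomycin added to DAHB, Lipt2, which attaches lipoate precursors, rose 1.8-fold.

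Of 42 tested further genes of fatty acid oxidation, 27 were higher and 10 lower in DAHB against NaCl (median log2 fold change 0.30), 8 higher and 16 lower in DAHB+O against DAHB (-0.03), and 24 higher and 10 lower in DAHB+O against NaCl (0.24). Among all genes tested, 35.5%, 33.1% and 36.5% were higher and 38.4%, 29.5% and 37.7% lower in these comparisons. In DAHB against NaCl the largest rises were those of Acacb, the acetyl-CoA carboxylase whose product restrains carnitine palmitoyltransferase, of Acad10, an acyl-CoA dehydrogenase family member, and of Slc27a1, a fatty acid transporter (3.47-fold, 2.14-fold and 1.81-fold). Acacb averaged 240.0 ± 11 normalized counts in DAHB+O and 57.4 ± 8.68 in NaCl (SD, n = 3), and its rise in DAHB against NaCl had a log2 fold change of 1.79 ± 0.13 (SE) and a limma adjusted p of 7.06e-09. The acyl-CoA synthetases Acsl5 and Acsl3 and the carnitine transporter Slc22a5 fell the most (2.16-fold, 2.08-fold and 1.83-fold). With oligomycin added to DAHB, Acot2, a mitochondrial acyl-CoA thioesterase, Acsl1 and Acsl5 rose (1.76-fold, 1.57-fold and 1.5-fold), and Acsl6 and Slc27a4 fell (1.56-fold and 1.51-fold). In DAHB+O against NaCl, Acacb, Pcca, a propionyl-CoA carboxylase subunit, and Acad10 rose (4.16-fold, 2.33-fold and 2.16-fold), and Acsl3, Slc27a4 and Acox3 fell (2.29-fold, 1.72-fold and 1.52-fold).

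Of 19 tested regulators of these pathways, 9 were higher and 8 lower in DAHB against NaCl (median log2 fold change 0.08), 8 higher and 4 lower in DAHB+O against DAHB (0.14), and 10 higher and 6 lower in DAHB+O against NaCl (0.27). The shares of all genes tested that were called were 73.9%, 62.6% and 74.2%. Prkaa2, a catalytic subunit of the energy sensor AMPK, averaged 93.2 ± 7.95 normalized counts in DAHB+O, 68.7 ± 8.2 in DAHB and 2.57 ± 1.4 in NaCl (SD, n = 3), and rose in DAHB against NaCl with a log2 fold change of 4.37 ± 0.29 (SE) and a limma adjusted p of 2.3e-09. Pparg and Ppara, nuclear receptors that bind fatty acids, were low: Pparg averaged 142 ± 21 normalized counts in DAHB+O, 135 ± 33.9 in DAHB and 43.2 ± 5.48 in NaCl and rose 3.02-fold in DAHB against NaCl, and Ppara averaged 14.6 ± 2.52 normalized counts in DAHB+O, 17 ± 3.41 in DAHB and 2.9 ± 0.848 in NaCl and rose in the same comparison (log2 2.22 ± 0.34 (SE), limma adjusted p = 3.15e-05). Foxo1, a transcription factor of quiescence and memory, averaged 9285 ± 547 normalized counts in DAHB+O, 15115 ± 964 in DAHB and 9689 ± 432 in NaCl; it rose 1.56-fold in DAHB against NaCl and fell 1.63-fold in DAHB+O against DAHB. Sirt1, a deacetylase that uses NAD, averaged 630.0 ± 32.2 normalized counts in DAHB+O, 367 ± 32.1 in DAHB and 927 ± 57.9 in NaCl; it fell 2.53-fold in DAHB against NaCl and rose 1.72-fold in DAHB+O against DAHB. Nrip1, a corepressor of nuclear receptors, fell 1.63-fold and Nrf1, an activator of mitochondrial genes, fell 1.53-fold in DAHB against NaCl. With oligomycin added to DAHB, Gabpb1, a subunit of the factor GABP, and Sirt3, the mitochondrial deacetylase, rose 1.63-fold and 1.46-fold, while Ppard and Tfb2m fell 1.31-fold and 1.2-fold. Between DAHB+O and NaCl, Prkaa2, Pparg and Ppargc1b rose (log2 fold changes of 4.81, 1.69 and 0.75), and Tfb2m, Sirt1 and Gabpa fell (-0.72, -0.56 and -0.44). Esrra, the receptor that acts through the ERR element, averaged 720.2 ± 23.6 normalized counts in DAHB+O, 676 ± 46.3 in DAHB and 757 ± 50.2 in NaCl and fell 1.12-fold in DAHB against NaCl (log2 -0.16 ± 0.065 (SE), limma adjusted p = 0.0349). Ppargc1a was not analysed here.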

How the data were processed

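The deposited table holds a signal per gene and library: read counts that the authors divided by a size factor. Per the submitters' processing notes, the tools were HTSeq 0.9.1, STAR 2.4, DESeq2, Picard and Trim Galore 0.4.5, and the build mm10; which annotation, strand setting and gene filter were used is not given in the sources used here. Whole reads could be recovered for 100.0% of values (within 1e-06 reads), at 28146402 to 39207045 reads per library. The 37 genes and all other lists were chosen with earlier results of these data known.

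The 9 libraries entered 1 limma fit (limma 3.58.1, R 4.3.3; mean-variance trend, no block) on log2(value + 1) of 14169 genes whose mean reached 10, as that of all 37 members did. Tests were two-sided, with Benjamini-Hochberg adjustment over all genes tested in each comparison and a threshold of 0.05. The alternatives were 20 in number, among them edgeR 4.0.16 and DESeq2 1.42.0 on the recovered reads, for which edgeR called 5333 higher and 5173 lower genes in DAHB against NaCl. Values in every library are given for the 4 largest called rises and falls of each comparison and for the genes of the 8 ratios. From the other lists, the 3 largest called changes in each direction, with a mean of at least 50 in the higher group, are named, plus Ppara, Esrra, Pdk1 and Pdk4, and the most abundant marker of each other cell type, except for a few genes not reported here. The 21 rows with a bare number in place of a name and 1 duplicated symbol carry no named result. Exon overlap and length came from GENCODE vM21 (GRCm38), near-identical copies (at least 90% identity over 30% of a transcript) from minimap2 2.31, and promoters from RefSeq GRCm38.p6.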

Additional observations from a re-analysis of the deposited data

How the results depend on the processing

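Counts of members called higher without each library in turn ranged from 8 to 11 in DAHB against NaCl, 9 to 11 in DAHB+O against DAHB and 11 to 13 in DAHB+O against NaCl, and those lower from 17 to 19, 9 to 13 and 15 to 17. Quantile normalization moved the members higher in DAHB+O against DAHB to 16, against 10 with the deposited scaling, and the cause was not tested. All genes moved too over the alternatives other than leaving out 1 library, some of which test other numbers of genes. All genes higher numbered 3989 to 5333 in DAHB against NaCl, 4327 to 4921 in DAHB+O against DAHB and 4293 to 5401 in DAHB+O against NaCl. Those lower numbered 5105 to 5917, 3614 to 4417 and 4932 to 5512 in the same order. A minimum mean of 50 moved the other TCA cycle and pyruvate genes higher in DAHB against NaCl to 3, against 5 at a minimum mean of 10, since Ogdhl and Dhtkd1 lie under it. With quantile normalization the log2 fold change turned to 0.026 (Ogdh), 0.018 (Suclg2), 0.080 (Aco1), 0.040 (Mdh1) and 0.016 (Pdk3) in DAHB against NaCl, to 0.013 (Idh3b), 0.087 (Mdh2) and 0.085 (Glud1) in DAHB+O against DAHB, and to 0.081 (Fh1), 0.21 (Mdh2), 0.030 (Pdha1) and 0.16 (Dlat) in DAHB+O against NaCl. Quantile normalization also added 13 calls of members in an unchanged direction. In DAHB+O against NaCl, TMM rescaling gave 0.0098 for Mdh2 and 0.0035 for Dlat, and edgeR 0.012 and 0.0063. Without 1 library, the log2 fold change ranged from -0.016 to 0.037 for Idh3a and -0.020 to 0.053 for Dlat in DAHB against NaCl, from -0.068 to 0.0047 for Dlat in DAHB+O against DAHB, and from -0.0062 to 0.044 for Aco1, -0.033 to 0.0040 for Dlat and -0.034 to 0.0087 for Mdh2 in DAHB+O against NaCl.

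Leaving out 1 library also added calls (limma adjusted p): in DAHB against NaCl Mdh2 without DAHB replicate 3 (0.0370), Aco1 without NaCl replicate 1 (0.0434) and Mpc1 without NaCl replicate 3 (0.0267); in DAHB+O against DAHB Mdh2 (0.0297), Acadvl (0.0331) and Hadhb (0.0087) without DAHB replicate 3, Pdp1 (0.0449) and Acadvl (0.0451) without DAHB replicate 1 and Pdk2 without DAHB+O replicate 3 (0.0407); and in DAHB+O against NaCl Dlst (0.0489) and Fh1 (0.0294) without DAHB replicate 3 and Idh3b without DAHB+O replicate 1 (0.0433).

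Same-numbered libraries had correlations of deviations of 0.0273 to 0.160, and every library correlated best with its own number. That is a hint of pairs from the data and not from the design. The main fit had no block because no paired design is stated in the sources used here, and the block was an alternative. With the replicate block, 12, 10 and 12 members were higher and 19, 11 and 16 lower in the 3 comparisons, adding Pdp1 in DAHB against NaCl (limma adjusted p = 0.0495) and Hadhb in DAHB+O against DAHB (0.0248). The counts over all genes with the block are not given here. Precision was lowest for the weakest genes: the SE of the log2 fold change was 0.12 for Etfb and 0.033 for Ogdh.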
